A study of Homo sapiens with 12 samples.

Results

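Integrins and laminins, the receptors and ligands through which cells hold on to the basement membrane, were examined in the RNA-seq data of epigenetically primed pancreatic ductal adenocarcinoma (PDAC) cells. The members are the protein-coding genes of GENCODE v44 whose symbol is that of an integrin alpha chain, an integrin beta chain or a laminin chain, and they were found by Ensembl identifier. There are 38 of them among the 63677 identifiers listed, namely 18 integrin alpha chains, 8 integrin beta chains and 12 laminin chains. Of these, 24 (17 integrins and 7 laminins) passed the filter on low counts and were tested together with all other genes, 17123 in total.

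The libraries came from MiaPaca2, an established human PDAC cell line, labelled wild type in all 4 groups. Unprimed cells received DMSO (Con) or the Vitamin D analogue calcipotriol (CPT, 1 µM), and primed cells received GTA at 2 mM with 5-Aza at 1 µM, either without (GTA+5-Aza) or with CPT at 1 µM (CPT+GTA+5-Aza), each for 24 h and with 3 libraries. GTA is glyceryl triacetate, an acetate precursor for histone acetylation, and 5-Aza is 5-Aza-2′-deoxycytidine, an inhibitor of DNA methyltransferases. GTA and 5-Aza were given together in both primed groups, so their effects cannot be told apart. The study describes the samples of each experiment as independent, but neither its methods nor the labels say whether the 3 libraries of a group came from separate cultures. If they did not, the p-values measure only technical spread.

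Each integrin is a pair of 1 alpha and 1 beta chain. The alpha chain largely sets what the receptor binds, whether laminin, collagen, proteins with an RGD motif such as fibronectin, or counter-receptors on other cells, and ITGB1 pairs with more alpha chains than any other beta chain does. A laminin is a trimer of 1 alpha, 1 beta and 1 gamma chain that polymerizes into the sheet on which epithelial cells rest. In normal epithelium the integrin of ITGA6 and ITGB4 anchors hemidesmosomes to a laminin with the chains LAMA3 and LAMB3.

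The 250 bases before the RefSeq start (GRCh38.p14) are shown for the 4 members that passed the test of priming both without and with CPT and have an entry in the promoter table, since 5-Aza blocks the enzymes that methylate CG dinucleotides. ITGA3, which also passed in both, and ITGA7 have no entry. The LAMB1 window begins at 108003162, while the GENCODE gene reaches 108003213, so part of that window lies within the gene. Capitals mark each CG, and all sequences read 5′ to 3′ on the strand of the gene.
ITGA5 promoter, chr12:54419267-54419516, minus strand: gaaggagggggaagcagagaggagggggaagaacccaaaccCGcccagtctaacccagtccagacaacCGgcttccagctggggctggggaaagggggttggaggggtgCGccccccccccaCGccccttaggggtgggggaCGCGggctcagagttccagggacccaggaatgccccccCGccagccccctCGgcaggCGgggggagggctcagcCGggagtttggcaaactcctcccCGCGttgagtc
ITGB5 promoter, chr3:124901419-124901668, minus strand: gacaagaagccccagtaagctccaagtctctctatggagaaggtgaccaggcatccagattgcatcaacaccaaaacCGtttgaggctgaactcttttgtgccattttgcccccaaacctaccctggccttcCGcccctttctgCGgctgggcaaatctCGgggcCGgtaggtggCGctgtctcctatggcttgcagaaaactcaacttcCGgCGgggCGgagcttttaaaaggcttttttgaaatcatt
LAMB1 promoter, chr7:108003162-108003411, minus strand: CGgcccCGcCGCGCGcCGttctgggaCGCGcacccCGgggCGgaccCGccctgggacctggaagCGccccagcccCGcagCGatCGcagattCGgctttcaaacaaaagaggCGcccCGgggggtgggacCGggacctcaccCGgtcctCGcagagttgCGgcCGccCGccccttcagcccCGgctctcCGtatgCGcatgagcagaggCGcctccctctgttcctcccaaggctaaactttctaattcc
LAMA2 promoter, chr6:128882888-128883137, plus strand: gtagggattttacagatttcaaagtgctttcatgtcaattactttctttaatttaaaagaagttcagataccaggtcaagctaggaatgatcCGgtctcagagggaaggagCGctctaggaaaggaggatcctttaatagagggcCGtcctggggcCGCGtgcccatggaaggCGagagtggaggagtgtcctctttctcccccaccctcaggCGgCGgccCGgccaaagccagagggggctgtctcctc

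The LAMB1 window held 28 CG dinucleotides, more than 84.1% of the 35116 windows of all genes had. The ITGA5 window held 12, and the windows of ITGB5 and LAMA2 held 9 each, against a median of 11 in all genes. LAMA2, which fell after priming, had as many as ITGB5, which rose, and whether the CG number bears on the direction was not tested. Methylation itself was not measured in these libraries. Promoter entries matched 26 of the 38 members, and their CG number ran from 0 in ITGB6 to 32 in ITGB1, LAMA5 and LAMC1. The letters GGGCGG, searched on both strands, occurred in 13 of the 26 member windows and in 42.6% of all windows. The AP-1 letters TGACTCA occurred in 1 member window, that of LAMA3, and in 4.2% of all windows. CACGTG and TATAAA were each found in 1 member window, that of ITGA6 in both cases, and in 6.34% and 10.7% of all windows.

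Total counts per library ran from 16162490 to 21224665, and the medians of the groups were 20917960 in Con, 18698236 in CPT, 18382104 in GTA+5-Aza and 17411204 in CPT+GTA+5-Aza. The epithelial keratins KRT8, KRT18 and KRT19 were present in every library. EPCAM, CDH1 and KRT7, the other epithelial markers examined, were at or near 0 in Con, and the mesenchymal VIM was at 6162 to 6274 CPM (counts relative to a TMM-scaled library size) there and at 5308 to 5670 CPM in GTA+5-Aza. Of the 5 fibroblast markers COL1A2 stood at 789.3 to 842.1 CPM in Con, while COL1A1, DCN, LUM and PDGFRB were all under 1 CPM. Summed over 6 leukocyte, 4 endothelial and 4 platelet markers, no library reached more than 1.69, 0.62 and 0.35 CPM. Between Con and GTA+5-Aza the means of KRT7 were 0.389 and 2.02 CPM, those of KRT19 32.5 and 39.2, those of COL1A1 0.135 and 1.7 and those of COL1A2 809.8 and 896.6, and their part in the results on priming was not tested. In bulk RNA, fewer cells of a type and less RNA per cell cannot be told apart.

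MiaPaca2 cells expressed a narrow part of both families. The same 12 members were at 10 CPM or more in all 12 libraries, 7 of them integrins (ITGB1, ITGB4, ITGB5, ITGA3, ITGAV, ITGA5 and ITGAE) and 5 laminins (LAMA2, LAMA5, LAMB1, LAMB2 and LAMC1). Compared per kb of the canonical transcript, ITGB1 stood far above the rest in Con, at 245.9 ± 10.0 CPM per kb (SD, n = 3), and made up 88.1 ± 1.12% of the summed beta chain level. ITGB4, the partner of ITGA6 in hemidesmosomes, followed at 20.9 ± 1.5 CPM per kb. ITGA3 (16.0), ITGAV (15.8) and LAMC1 (15.3) came next and their libraries overlapped. ITGB5 (11.3), LAMA5 (11.0), ITGA5 (9.49) and LAMB2 (8.84) formed a further run in which each overlapped its neighbour in the order. LAMA2 (4.98) and ITGAE (4.84) overlapped each other and lay above LAMB1 (3.43), and ITGA6 was lower again at 0.930 CPM per kb.

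**Figure D1:**
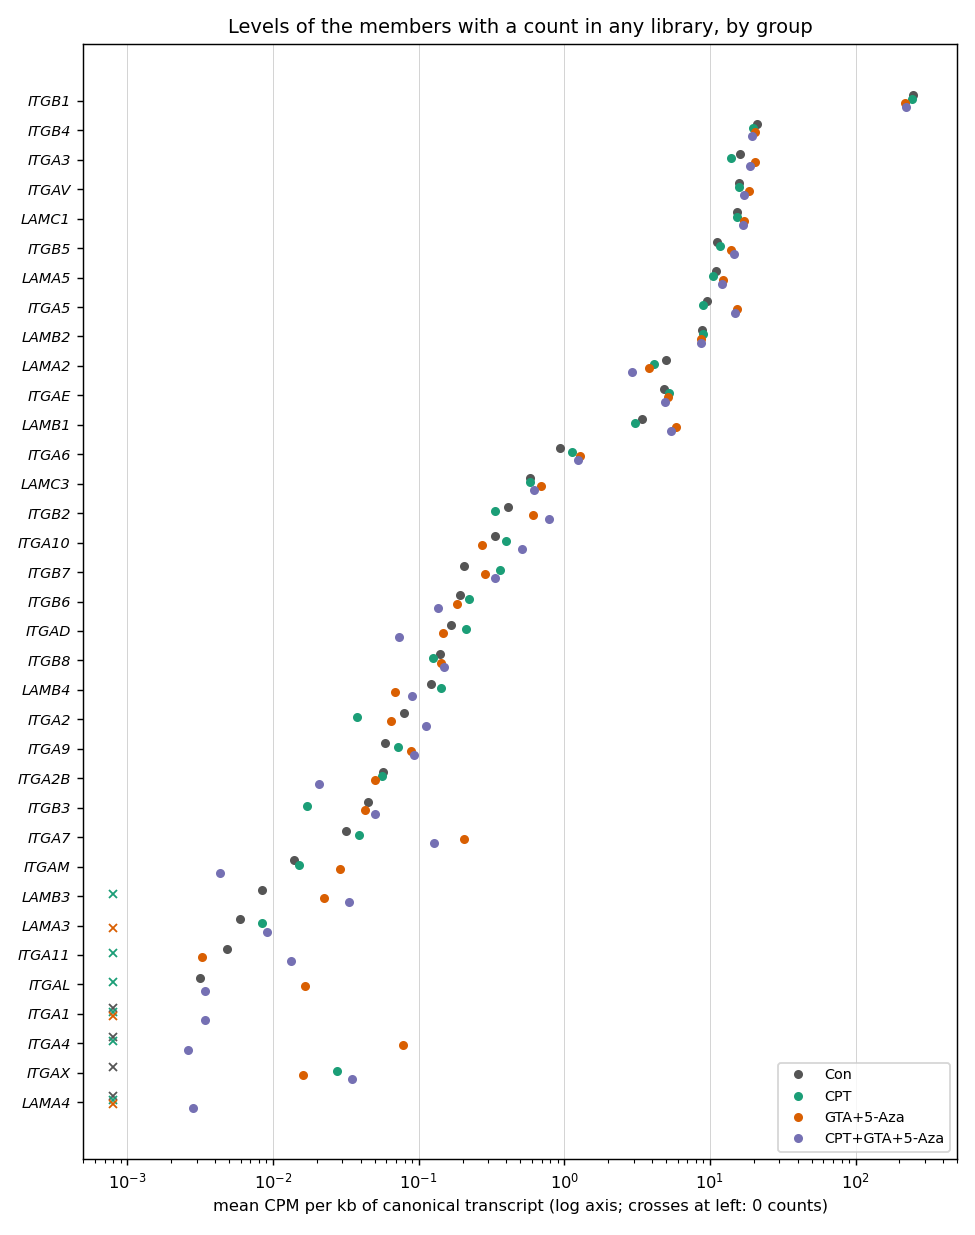
Mean CPM per kb of canonical transcript (log axis) of the members with a count in any library, with 1 point for each of the 4 groups; crosses at the left mark groups with 0 counts. Only the 12 members from ITGB1 to LAMB1 lay above 1 CPM per kb in Con, and the points of LAMA2, LAMB1 and ITGA5 separated by priming.

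Among the laminins, the expressed set was LAMA5 and LAMA2 with LAMB2 and LAMB1 and with LAMC1. In Con, LAMA5 made up 68.7 ± 3.28% and LAMA2 31.3 ± 3.31% of the laminin alpha level per length, and LAMC1 made up 96.3 ± 1.48% of the gamma level. The hemidesmosomal laminin chains LAMA3 and LAMB3 were near or at 0, with at most 4 and 7 counts in any library. A count of 0 allows up to 3 counts, which is 0.184 CPM in the shallowest library and covers counting error only. LAMC1 was at 116.8 to 140.5 CPM in the same libraries. ITGB4 was at 108.0 to 131.7 CPM and ITGA6 at 5.01 to 8.35 CPM over all 12 libraries, so both hemidesmosomal receptor chains were detected where LAMA3 and LAMB3 were near 0.

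The 14 members that were not tested never exceeded 21 counts in a library. ITGA8 and LAMA1 had 0 counts throughout, and the others included ITGA1, ITGA11, ITGA2B, ITGA4, ITGAL, ITGAM, ITGAX, ITGB3, LAMA3, LAMA4 and LAMB3. ITGA4, whose product binds fibronectin and VCAM1 and is best known from leukocytes, had 0 counts in all 6 unprimed libraries. It had 21, 8 and 1 counts in GTA+5-Aza and 1, 0 and 0 in CPT+GTA+5-Aza. A level above 3 counts was thus reached in only 2 of the 6 primed libraries. The leukocyte chains ITGAL, ITGAM and ITGAX, which with ITGAD lie on chromosome 16, had at most 4, 6 and 8 counts. PTPRC, the defining leukocyte marker, had at most 4 counts in any library.

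To determine how priming changed these genes, GTA+5-Aza was compared with Con and CPT+GTA+5-Aza with CPT. The comparisons share no library, but they are not independent, since 1 fit of all 12 libraries gave the spread and the scaling for both. In primed cells the messages of the fibronectin receptor chain ITGA5, the laminin-binding chain ITGA3, the vitronectin receptor chain ITGB5 and the laminin chain LAMB1 were upregulated in both, by 1.24-fold to 1.76-fold, and the laminin chain LAMA2 was downregulated in both. A member was called where the quasi-likelihood test of edgeR gave an adjusted p below 0.05, with Benjamini-Hochberg adjustment across every gene tested. Without CPT, 6 members were higher and 1 was lower. Among the 6 was ITGA7, which passed the filter on low counts only through primed libraries and so had to be higher to be counted. With ITGA7 included, the calls were 29.2% of the 24 tested, where 17.5% of all tested genes were called (9.95% higher and 7.53% lower). With CPT, 4 were higher and 1 was lower, which is 20.8% of the 24 where 17% of all tested genes were called (9.57% higher and 7.39% lower). The number higher without CPT was 3 when Con replicate 3 was left out. The study's thresholds were read here as more than a 1.5-fold change and a P below 0.05 before adjustment. Their wording could also mean a test against a 1.5-fold change itself. By the thresholds as read here, 3 members were higher and 0 lower without CPT (6.82% and 1.62% of all genes). With CPT, 5 were higher and 1 lower (6.93% and 1.74%).

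The median log2 fold change of the 24 members was 0.17 without CPT and 0.14 with CPT, against 0.01 over all genes in both comparisons. In each, 15 members were above 0 and 9 below. The libraries of the compared groups did not overlap for 8 members higher and 1 lower without CPT, where 18.1% and 16.0% of all genes were in that position, and for 10 higher and 2 lower with CPT (16.4% and 14.4% of all genes). ITGA7, the 1 member that passed the filter on low counts only through primed libraries, is included in these medians and counts. It is also among the members higher by the study's thresholds in both comparisons.

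**Figure D2:**
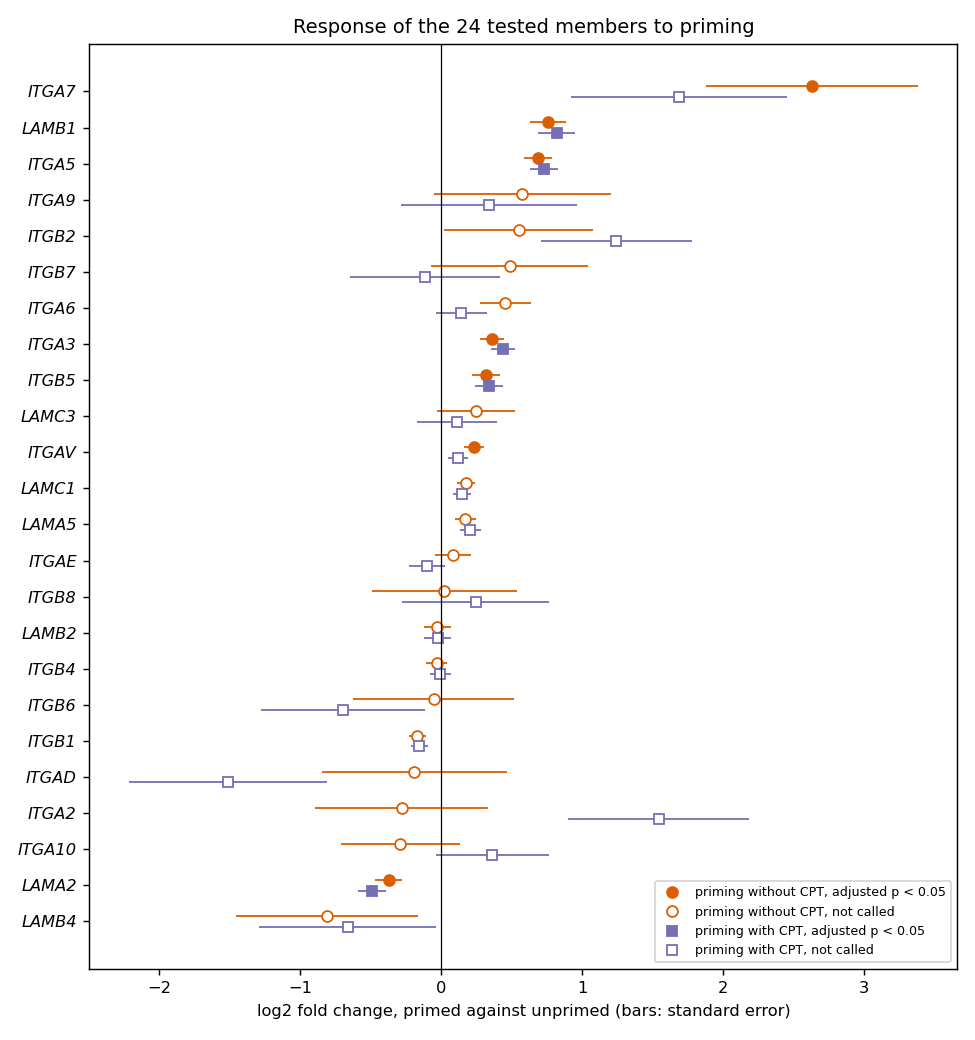
Log2 fold change (x axis) with its standard error for the 24 tested members (y axis), primed against unprimed cells, without CPT (circles) and with CPT (squares); filled symbols passed an adjusted p under 0.05. LAMB1, ITGA5, ITGA3 and ITGB5 lay above 0 and LAMA2 below 0 with filled symbols in both comparisons, and members of low level had wide bars.

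The RGD-binding alpha chains were led by ITGA5 (ENSG00000161638, chromosome 12 from 54395261 to 54419266), which pairs with ITGB1 as the main fibronectin receptor. Its level was 35.4, 44.1 and 41.5 CPM in Con, 39.3, 38.7 and 35.7 in CPT, 71.4, 54.9 and 68.6 in GTA+5-Aza, and 60.5, 61.3 and 66.4 in CPT+GTA+5-Aza. Every primed library stood above every unprimed one. The log2 fold change was 0.69 (SE 0.10, adjusted p = 1.89e-05) without CPT and 0.73 (SE 0.10, adjusted p = 9.61e-06) with CPT, and it stayed past the threshold with each library left out in turn. GPR84-AS1, an antisense RNA that overlaps ITGA5, was at a mean of 2.54 CPM and rose without CPT by 0.99 (adjusted p = 0.0271), while its value with CPT was 0.27 (adjusted p = 0.633). The sources used here do not give the strand setting of the counting, so the part of this overlap in the ITGA5 count was not tested.

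ITGAV (ENSG00000138448, chromosome 2 from 186590010 to 186680901), the alpha chain of the vitronectin receptors, was at 122.1, 107.1 and 104.9 CPM in Con and 133.5, 136.2 and 122.4 in GTA+5-Aza. The lowest primed library thus exceeded the highest Con library by a narrow margin. In CPT it was at 111.2, 106.1 and 114.7 CPM and in CPT+GTA+5-Aza at 124.4, 116.8 and 119.0. ITGAV had a log2 fold change of 0.23 (SE 0.07, adjusted p = 0.0214) without CPT and 0.12 (SE 0.07, adjusted p = 0.278) with CPT, and the difference between these did not pass the test of the interaction (unadjusted P = 0.263). The call without CPT was lost when Con replicate 2 (adjusted p = 0.0857), Con replicate 3 (0.14), GTA+5-Aza replicate 1 (0.0861) or GTA+5-Aza replicate 2 (0.0839) was left out. ITGA8 and ITGA2B, the other RGD-binding alpha chains, were not tested.

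Among the laminin-binding alpha chains, ITGA3 (ENSG00000005884, chromosome 17 from 50055968 to 50090481) was the most abundant per length. It was at 79.8, 84.0 and 71.2 CPM in Con, 62.7, 76.8 and 65.1 in CPT, 100.8, 95.9 and 104.5 in GTA+5-Aza, and 86.4, 99.5 and 91.2 in CPT+GTA+5-Aza. All primed libraries were above all unprimed ones. Priming changed ITGA3 on the log2 scale by 0.36 (SE 0.08, adjusted p = 0.00329) without CPT and 0.44 (SE 0.08, adjusted p = 0.000587) with CPT, and both calls held with each library left out in turn. ITGA6, whose product pairs with ITGB1 or ITGB4, had a value of 0.45 (SE 0.18, adjusted p = 0.0896) without CPT and 0.14 with CPT. The largest fitted change of all members in both priming comparisons belonged to ITGA7, an integrin chain best known from muscle, but at very low counts. It passed the filter on low counts only through primed libraries, so higher values there were a condition of its being tested. ITGA7 (ENSG00000135424, chromosome 12 from 55684568 to 55716404) had 2, 5 and 1 counts in Con, 3, 2 and 4 in CPT, 13, 20 and 15 in GTA+5-Aza, and 14, 5 and 9 in CPT+GTA+5-Aza. The compared groups did not overlap in CPM, which stayed at 1.0 or below throughout. Its log2 fold change was 2.63 (SE 0.75, adjusted p = 0.0155) without CPT and 1.68 (SE 0.77, adjusted p = 0.139) with CPT, with an unadjusted P of 0.402 for the interaction. The call without CPT was lost without Con replicate 1 (adjusted p = 0.0758) or 3 (0.0989), and without GTA+5-Aza replicate 2 (0.0591) or 3 (0.0559).

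Of the 2 tested collagen-binding alpha chains, neither was called at the adjusted threshold. ITGA2, the collagen receptor chain also found on platelets, had 9, 20 and 9 counts in Con, 5, 7 and 5 in CPT, 6, 14 and 9 in GTA+5-Aza, and 13, 12 and 21 in CPT+GTA+5-Aza. Its libraries overlapped without CPT (log2 fold change -0.28) and did not with CPT, where it met the study's thresholds (1.54, SE 0.64, adjusted p = 0.102). The interaction of ITGA2 had an unadjusted P of 0.0506, the smallest of any member. ITGA10 was at 0.74 to 3.12 CPM in all libraries and met neither threshold in the priming comparisons. ITGA1 had no more than 1 count in any library, although it lies 30.1 kb from ITGA2 on chromosome 5.

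The leukocyte chains and the remaining alpha chains gave no call. ITGAE, the chain through which T cells bind E-cadherin, was at 15.9 to 21.4 CPM in every library with a log2 fold change of 0.09 without CPT and -0.10 with CPT. HASPIN, a gene on the opposite strand that overlaps ITGAE, was at a mean of 27.7 CPM, and its part in the ITGAE count was not tested. ITGAD had 6, 18 and 16 counts in Con, 10, 19 and 18 in CPT, 21, 4 and 7 in GTA+5-Aza, and 4, 7 and 4 in CPT+GTA+5-Aza. It met the study's thresholds in the lower direction with CPT (-1.51, SE 0.70, adjusted p = 0.149), and without CPT its libraries overlapped (-0.19). ITGA9 lay between 0.27 and 1.10 CPM.

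**Figure D3:**
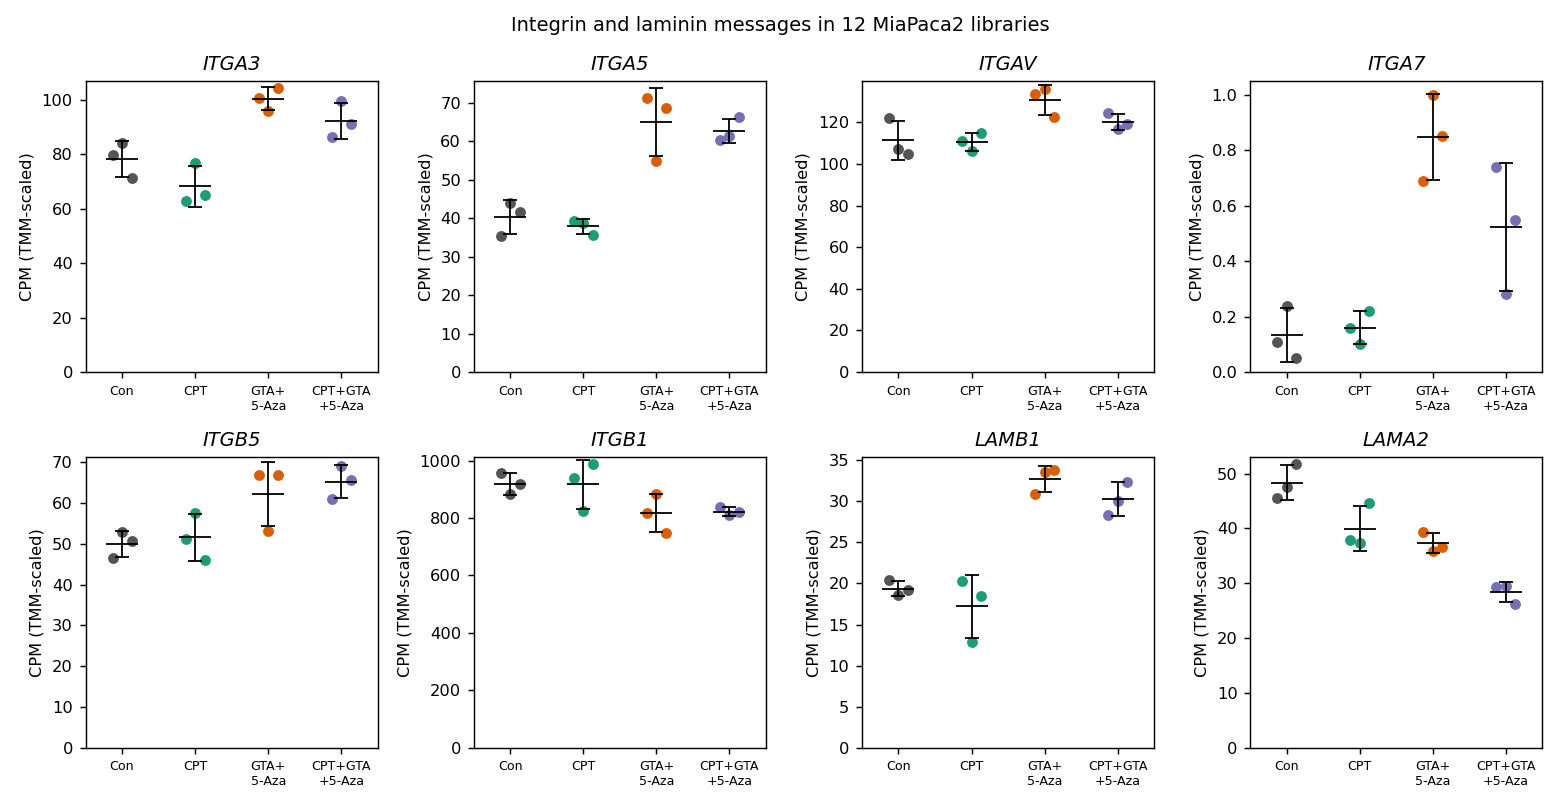
CPM in each of the 12 libraries (points) with mean and SD (bars, n = 3) for 8 members, by group, on linear axes from 0. For ITGA3, ITGA5 and LAMB1 all 6 primed libraries were above the 6 unprimed ones, LAMA2 was lowest in CPT+GTA+5-Aza, and ITGA7 did not exceed 1.0 CPM.

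Among the beta chains, ITGB5 (ENSG00000082781, chromosome 3 from 124761948 to 124901418), the partner of ITGAV in a vitronectin receptor, was the 1 member called. It was at 46.5, 52.8 and 50.7 CPM in Con, 51.3, 57.5 and 46.0 in CPT, 66.8, 53.2 and 66.8 in GTA+5-Aza, and 61.0, 69.2 and 65.6 in CPT+GTA+5-Aza. GTA+5-Aza replicate 2 lay just above the highest Con library, and the groups with CPT were clearly apart. For ITGB5 this gave a log2 fold change of 0.32 (SE 0.10, adjusted p = 0.0237) without CPT and 0.34 (SE 0.10, adjusted p = 0.0166) with CPT. The call without CPT was lost without Con replicate 1 (adjusted p = 0.129) or 3 (0.065), or without GTA+5-Aza replicate 1 (0.13) or 3 (0.125). The call with CPT was lost without CPT replicate 1 (adjusted p = 0.0592) or 3 (0.0878), or without CPT+GTA+5-Aza replicate 2 (0.0921) or 3 (0.0545).

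ITGB1, the common beta chain and the most abundant member, was just outside the threshold in both comparisons and is described in full because its values were seen to lie there. It was at 956.6, 881.8 and 917.2 CPM in Con, 938.9, 823.6 and 987.1 in CPT, 816.3, 882.6 and 749.2 in GTA+5-Aza, and 838.2, 809.2 and 819.4 in CPT+GTA+5-Aza. The groups overlapped in both comparisons. ITGB1 had a log2 fold change of -0.17 (SE 0.06, adjusted p = 0.0506) without CPT and -0.16 (SE 0.06, adjusted p = 0.0753) with CPT. Without CPT it passed when Con replicate 2 (adjusted p = 0.0426), CPT replicate 2 (0.00805), CPT replicate 3 (0.0181) or GTA+5-Aza replicate 2 (0.0139) was left out, and with CPT it passed without CPT replicate 2 (0.00155). ITGB4 had log2 fold changes of -0.03 and -0.01 without and with CPT. ITGB2, the common chain of the leukocyte integrins, had 8, 29 and 34 counts in Con, 7, 17 and 29 in CPT, 11, 35 and 49 in GTA+5-Aza, and 52, 35 and 31 in CPT+GTA+5-Aza. It met the study's thresholds with CPT (1.24, SE 0.53, adjusted p = 0.116, and 0.0371 without CPT replicate 3), and its libraries overlapped without CPT (0.55). ITGB6, ITGB7 and ITGB8 stayed at 2.27 CPM or below in every library.

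In the laminins, LAMB1 (ENSG00000091136, chromosome 7 from 107923799 to 108003213), a beta chain found in most basement membranes, was upregulated. It was at 20.4, 18.5 and 19.2 CPM in Con, 20.2, 12.9 and 18.5 in CPT, 30.9, 33.6 and 33.8 in GTA+5-Aza, and 28.4, 30.1 and 32.4 in CPT+GTA+5-Aza. All 6 primed libraries were above all 6 unprimed ones, and CPT replicate 2 was the lowest. The log2 fold change was 0.76 (SE 0.13, adjusted p = 0.000125) without CPT and 0.82 (SE 0.13, adjusted p = 6.16e-05) with CPT, and both calls held with each library left out in turn, with values from 0.64 to 0.94 with CPT. DLD, a gene on the opposite strand that overlaps LAMB1 and was at a mean of 150.9 CPM, moved the other way, with -0.24 (adjusted p = 0.0145) and -0.26 (adjusted p = 0.00797), and its part in the LAMB1 count was not tested. LAMB2, the alternative beta chain, was at 44.1 to 54.4 CPM in every library with a log2 fold change of -0.03 in both comparisons. LAMB4, which lies 20.3 kb from LAMB1, had a level of at most 1.14 CPM and was not called.

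LAMA2 (ENSG00000196569, chromosome 6 from 128883138 to 129516566), the laminin alpha chain best known from muscle and nerve basement membranes, was the 1 member downregulated by priming. It was at 45.5, 47.6 and 51.8 CPM in Con, 37.9, 37.3 and 44.7 in CPT, 39.3, 35.9 and 36.6 in GTA+5-Aza, and 29.4, 29.6 and 26.2 in CPT+GTA+5-Aza. Primed libraries lay below the unprimed libraries of the same comparison in both cases. The log2 fold change was -0.37 (SE 0.10, adjusted p = 0.00746) without CPT and -0.49 (SE 0.10, adjusted p = 0.000909) with CPT. The call with CPT held with each library left out in turn, and the call without CPT was lost when Con replicate 3 was left out (adjusted p = 0.0567). LAMA5, the alpha chain typical of mature epithelial basement membranes, had a value of 0.17 (SE 0.08, adjusted p = 0.128) without CPT and 0.21 (SE 0.08, adjusted p = 0.0598) with CPT. LAMC1, the gamma chain of most laminins, had 0.17 (SE 0.06, adjusted p = 0.0611) and 0.14 (SE 0.06, adjusted p = 0.127), with no overlap of libraries in either comparison. LAMC3 stayed between 3.11 and 7.27 CPM and was not called.

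The makeup of both families was next followed within each library, as ratios that do not depend on the scaling between libraries. The numerator of every ratio was a member called in priming without CPT, and all of them but ITGAV were also called with CPT. The ratios, and their lack of overlap, are therefore no separate support for the calls in either comparison. The share of ratios without overlap among other genes was not computed. The ratio of LAMB1 to LAMB2 counts was 0.386 ± 0.0274 (SD, n = 3) in Con and 0.666 ± 0.0378 in GTA+5-Aza, and 0.345 ± 0.0951 in CPT and 0.613 ± 0.0784 in CPT+GTA+5-Aza. Per length, LAMB1 went from 27.7 ± 1.56% to 39.9 ± 1.31% of the laminin beta level without CPT, and from 25.2 ± 5.45% to 37.8 ± 3.01% with CPT. The ratio of LAMA2 to LAMA5 counts was 0.389 ± 0.0612 in Con against 0.267 ± 0.0333 in GTA+5-Aza, and 0.334 ± 0.0408 in CPT against 0.205 ± 0.0140 in CPT+GTA+5-Aza. LAMB1 thus took a larger share of the beta chains and LAMA2 a smaller share of the alpha chains in primed cells. The ratio of ITGA5 to ITGB1 counts was 0.0441 ± 0.00658 in Con against 0.0805 ± 0.0159 in GTA+5-Aza, and 0.0417 ± 0.00540 in CPT against 0.0763 ± 0.00442 in CPT+GTA+5-Aza. The ratio of ITGA3 to ITGB1 rose by 1.45-fold and 1.49-fold, and that of ITGAV to ITGB1 by 1.33-fold and 1.2-fold, between the group means. The ratio of LAMB1 to LAMC1 rose by 1.5-fold and 1.6-fold between the group means. The ratio of ITGB5 to its partner ITGAV was 0.452 ± 0.0620 in Con against 0.479 ± 0.0802 in GTA+5-Aza, and 0.468 ± 0.0713 in CPT against 0.544 ± 0.0513 in CPT+GTA+5-Aza. Libraries of the compared groups overlapped in both comparisons of ITGB5 to ITGAV (p = 0.5 and 0.2 in a two-sided exact permutation test) and did not in the 12 comparisons of the 6 other ratios. Each of those 12 gave p = 0.1 in the same exact test (0.117 after Benjamini-Hochberg adjustment over all 14), and 0.1 is the smallest p that 3 libraries against 3 allow, so the 0.05 threshold could not be reached.

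**Figure D4:**
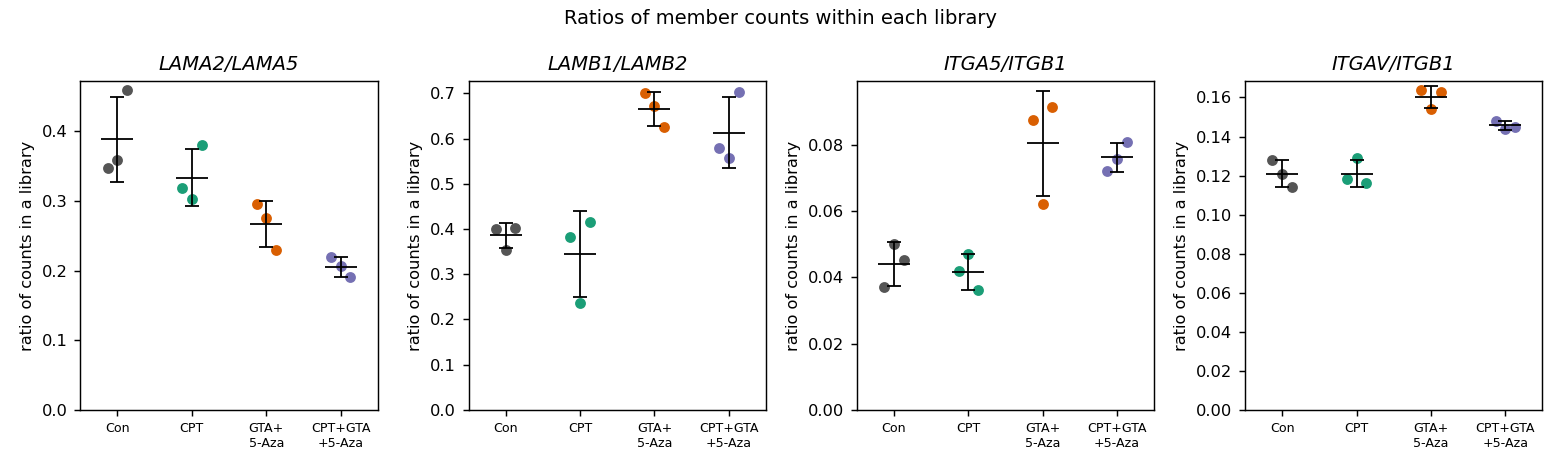
Ratio of the counts of 2 members within each library (points) with mean and SD (bars, n = 3), by group, on linear axes from 0. LAMA2/LAMA5 was lower, and LAMB1/LAMB2, ITGA5/ITGB1 and ITGAV/ITGB1 were higher, in every primed library than in every unprimed library.

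To determine whether CPT acted on these genes, CPT was compared with Con and CPT+GTA+5-Aza with GTA+5-Aza. These comparisons share libraries with those of priming. At the adjusted threshold no member was called in either, and neither was any of the 17123 genes (0% of all genes). DESeq2, the likelihood ratio test of edgeR and glmTreat also called 0 members in both. By the study's thresholds no member changed in unprimed cells (0.689% of all genes were higher and 1.14% lower), and 1 was higher and 0 lower in primed cells (0.345% and 0.66% of all genes). Below 0.05 before adjustment there were 2 members in unprimed cells (4.28% of all genes) and 2 in primed cells (2.71% of all genes). LAMA2 was among them in both, with log2 fold changes of -0.27 (SE 0.10, adjusted p = 1) in unprimed and -0.39 (SE 0.10, adjusted p = 1) in primed cells. Its group means were 48.3 ± 3.20 CPM in Con, 40.0 ± 4.07 in CPT, 37.3 ± 1.81 in GTA+5-Aza and 28.4 ± 1.89 in CPT+GTA+5-Aza. The libraries with CPT lay below those without it in both states, so LAMA2 had its lowest values where both treatments were combined.

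The other member in unprimed cells was ITGA3, at -0.20 on the log2 scale with overlapping libraries, and in primed cells it was ITGA10, at 0.90. ITGA10, a collagen receptor chain best known from cartilage, was at 0.96, 1.70 and 1.52 CPM in GTA+5-Aza and at 3.12, 2.27 and 2.45 in CPT+GTA+5-Aza. Libraries with and without CPT did not overlap for 0 members higher and 2 lower in unprimed cells (LAMA2 and ITGA2, where 3.81% and 4.21% of all genes were in that position) and for 1 higher and 1 lower in primed cells (ITGA10 and LAMA2, with 4.42% and 4.74% of all genes). In the interaction of CPT and priming, no member was called, none met the study's thresholds (0.934% of all genes were higher and 0.841% lower), and none was below 0.05 before adjustment, where 2.63% of all genes were.

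Genes that work with integrins and laminins were counted by lists, with the same test and threshold, at which 17.5% of all tested genes were called in priming without CPT and 17% with CPT, with a median of 0.01 in both. Of the focal adhesion adaptors that link integrins to actin and to signaling, 28 of 30 were tested. Without CPT 5 were higher and 2 lower, and with CPT there were again 5 and 2, which is 25.0% of the tested genes each time (medians 0.10 and 0.11). Both lower genes and 4 of the higher ones were called in both comparisons, while FLNA passed in the first and LIMS2 in the second, with no call of a difference between the comparisons in the interaction (unadjusted P = 0.484 and 0.121). With CPT the count became 9 higher and 5 lower when CPT replicate 2 was left out, and 1 was lower without CPT replicate 1 or CPT+GTA+5-Aza replicate 3. PXN (paxillin, a scaffold of focal adhesions) rose from 432.0 to 559.2 CPM without CPT and from 441.7 to 586.1 CPM with CPT. TNS4, a tensin that binds the tails of beta chains, was at 0.543 CPM in Con and 4.0 in GTA+5-Aza, and the kinase SRC rose from 59.9 to 78.2 CPM. TNS3, another tensin, fell from 415.6 to 278.6 CPM, and PARVA, a parvin of the integrin-linked kinase complex, fell from 61.7 to 46.5 CPM. Of the hemidesmosome and tetraspanin partners 9 of 11 were tested, with 4 higher and 1 lower without CPT (55.6%) and 5 higher and 1 lower with CPT (66.7%, medians 0.27 and 0.32). The number higher fell to 2 in the former without Con replicate 3 or GTA+5-Aza replicate 3, and to 3 in the latter without CPT+GTA+5-Aza replicate 2. COL17A1, a hemidesmosomal collagen, rose by 0.40 and 0.48 on the log2 scale, and the tetraspanins CD9 (0.27 and 0.34) and TSPAN4 (0.36 and 0.45) rose in both. DST, the hemidesmosomal plakin dystonin, fell by 0.29 and 0.23.

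Of the basement membrane partners and non-integrin laminin receptors 11 of 16 were tested, with 3 higher and 0 lower without CPT and 2 higher and 1 lower with CPT (27.3% of the tested genes in each, medians 0.01 and 0.10). Without CPT 1 was higher when Con replicate 1, Con replicate 3 or GTA+5-Aza replicate 3 was left out, and 1 was lower without Con replicate 1, CPT replicate 2, CPT replicate 3 or GTA+5-Aza replicate 3. With CPT 1 was higher without CPT replicate 1 or CPT+GTA+5-Aza replicate 2 or 3, and 0 were lower without CPT+GTA+5-Aza replicate 3. BCAM, a receptor for LAMA5-containing laminins, rose from 6.33 to 14.8 CPM without CPT and from 6.97 to 12.5 CPM with CPT. AGRN (agrin) was called without CPT at 0.25 (SE 0.07, adjusted p = 0.0194), and COL18A1, a basement membrane collagen, at 0.29 without and 0.30 with CPT. Of the integrin ligands other than laminins 14 of 21 were tested, with 5 higher and 0 lower without CPT (35.7%) and 7 higher and 0 lower with CPT (50.0%, medians 0.49 and 0.81). One of them, THBS1, passed the filter on low counts only through primed libraries and so had to be higher, and without it 4 and 6 of 13 were higher (medians 0.45 and 0.69). CCN1, a matricellular ligand of several integrins, rose from 98.9 to 144.0 CPM without CPT and from 110.8 to 160.1 CPM with CPT. MFGE8, an RGD protein, rose by 0.78 and 0.69 on the log2 scale, and CCN2 by 1.98 and 1.29 from a low level. FN1 (fibronectin), the ligand of the receptor made of ITGA5 and ITGB1, was at a mean of 2.93 to 3.0 CPM in the 4 groups and was chosen for mention after its values were seen. In the CPT comparisons and the interaction, none of the listed genes was called at the adjusted threshold. By the study's thresholds TNC was lower with CPT in unprimed cells (log2 fold change -2.41, SE 0.71) and higher in the interaction (2.75, SE 0.89). The mean of TNC was only 0.677 CPM in Con and 0.120 CPM in CPT, so both changes rest on few counts. FERMT3 was lower with CPT in primed cells (-0.78, SE 0.30), and no other listed gene met the study's thresholds in these comparisons. Of all genes, 1.14% were lower in unprimed cells, 0.66% lower in primed cells and 0.934% higher in the interaction.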

How the data were processed

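RNA-seq counts of 12 MiaPaca2 libraries, 3 in each of 4 groups, were used. The authors' pipeline was Trim Galore for trimming, HISAT2 2.2.1 for alignment to GRCh38 and HTSeq for counting, and what they deposited are whole-number counts of each gene, not normalized. The strand setting and annotation release are not given in the sources used here. Symbols and coordinates came from GENCODE v44, in which 52181 of the 63677 listed identifiers, with 99.047% of all counts, were found. No identifier row without a gene was present.

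The analysis used edgeR 4.0.16 and limma 3.58.1 in R 4.3.3. The filter filterByExpr on the 4 groups, close to 0.535 CPM in 3 libraries, left 17123 genes. TMM scaling (factors 0.981 to 1.02), and then glmQLFit and glmQLFTest on a single fit of the 12 libraries followed, with Benjamini-Hochberg adjustment over all genes and a threshold of 0.05. CPM values used TMM-scaled library sizes, and values per kb used the Ensembl canonical transcript. The method was tested on simulated counts. Chi-square values for each degree of freedom were 3.88 to 16.6 in the 12 pairs of libraries within groups and 3.68 to 23.3 in the 54 pairs between groups, so no pair agreed within sampling noise. Within groups the highest values were those of CPT replicate 2, at 16.6 against replicate 3 and 9.04 against replicate 1. All other pairs within groups were at 7.27 or below. Other settings tried were the edgeR likelihood ratio test, glmTreat, DESeq2 1.42.0, other scalings and filters, the study's thresholds, only the groups compared, the replicate number as a block, and each library left out.

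The members, the 4 lists of partner genes and the tests were chosen with earlier results of these data known. All members are in the counts given, but 1 is not reported here by name, and full values are given for those called in any comparison or past the study's thresholds in a priming comparison. From each list, up to 3 called genes in each direction with the smallest p in priming without CPT are named. Promoter sequences and starts are from RefSeq.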

Additional observations from a re-analysis of the deposited data

How the results depend on the processing

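Of the 585 log2 fold changes of the members given in full that were computed under the alternatives, 539 kept their direction and their side of the threshold. Of the counts of called genes in the lists of partners, 307 stayed within 1.5 times the main count and 45 did not. ITGA5, LAMB1 and ITGA3 were called in both priming comparisons under every alternative other than the study's thresholds, which ITGA3 did not meet at 1.28-fold and 1.35-fold, and glmTreat, which tests against a fold change of 1.5 itself and called 0 members in any comparison. Members lower in priming without CPT numbered 2 with RLE size factors, with no filter, with a filter of at least 10 counts in 3 libraries, and with only the groups compared in the fit, the second being ITGB1 (adjusted p 0.0449, 0.0193, 0.0483 and 0.0168). Members lower in priming with CPT also numbered 2 with no filter, again with ITGB1 (adjusted p = 0.0375). By the study's thresholds, 3 members were higher and 0 lower in priming without CPT, and 1 was higher with CPT in primed cells, which was ITGA10. The edgeR likelihood ratio test called ITGA2 in priming with CPT (adjusted p = 0.0459).

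With each library left out in turn, the members called in priming without CPT numbered 3 to 7 higher and 0 to 2 lower, and in priming with CPT 3 to 5 higher and 1 to 2 lower. The higher count of 3 and the lower count of 0 came without Con replicate 3. The second lower member came without Con replicate 2, GTA+5-Aza replicate 2, CPT replicate 2 or CPT replicate 3 in priming without CPT, and without CPT replicate 2 in priming with CPT. In priming without CPT, the log2 fold change of ITGA2 ran from -0.58 to 0.17 and that of ITGAD from -1.13 to 0.22. ITGA2 changed sign without Con replicate 2 (0.17), and ITGAD without Con replicate 2 (0.05), GTA+5-Aza replicate 2 (0.22) or GTA+5-Aza replicate 3 (0.01). The cause of these changes was not tested.

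The labels do not say whether the replicate numbers pair the libraries. The correlation of deviations of same-numbered libraries ran from -0.29 to 0.442, which does not settle it. The highest value was that of replicate 2 in CPT and Con. With the number as a block, 6 members were higher and 1 lower in priming without CPT, 5 higher and 1 lower with CPT (ITGB2 added, adjusted p = 0.0404), and 0 in the CPT comparisons and the interaction. Depth limits members under about 1 CPM, whose standard errors reached 0.77 on the log2 scale in the priming comparisons.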

Other observations

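Several members share their locus with another gene, and those neighbours had values of their own. GALK1, the galactokinase gene that overlaps ITGB4, was called higher in priming without CPT (log2 fold change 0.44, adjusted p = 0.00551) and with CPT (0.34, adjusted p = 0.0337), while ITGB4 was at -0.03 and -0.01. PELO, which lies within ITGA1, was called in priming with CPT (0.47, adjusted p = 0.0109) but not without it (0.13, adjusted p = 0.548), and ITGA1 itself had at most 1 count in any library. BLOC1S1, which overlaps ITGA7, had 0.21 (adjusted p = 0.738) and 0.15 (adjusted p = 0.814). ADRM1, which overlaps LAMA5 on the opposite strand, had 0.01 and -0.10, and neither was called. Its mean was 173.2 CPM against 131.1 CPM for LAMA5, and its part in the LAMA5 count was not tested.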
